A study of Homo sapiens with 24 samples.

Results

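Bortezomib added to ISRIB was examined by RNA-Seq in HepG2, a human liver cancer cell line. The 8 samples were chosen by their labels, as the 4 cultures given 50 nM bortezomib with 50 nM ISRIB and the 4 cultures given 50 nM ISRIB alone, out of 24 samples in the series. The series has 6 groups of 4 samples, which the labels call biological replicates, and all groups were treated for 10 h in fresh medium. The other 16 samples received the vehicle DMSO, 50 nM bortezomib, 20 µM nelfinavir, or 50 nM bortezomib with 20 µM nelfinavir. They are used below to ask how the response to bortezomib on top of ISRIB differed from its response on top of vehicle or nelfinavir. A response without ISRIB is below the response on vehicle, and nelfinavir is named where it is meant. Libraries were made with the QuantSeq 3′ FWD kit from 250 ng of total RNA and read as 80 bp single ends, so that counts come mostly from the 3′ ends of polyadenylated transcripts. The samples come from 1 cell line at 1 dose of each compound and 1 time.

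Bortezomib blocks the chymotrypsin-like site of the proteasome, the protease complex that degrades ubiquitin-tagged proteins. Cells in which proteins accumulate can induce cytosolic and endoplasmic reticulum (ER) chaperones, new proteasome subunits, and the integrated stress response, in which phosphorylation of eIF2 limits the exchange factor eIF2B and favours translation of the transcription factor ATF4. ISRIB binds eIF2B and keeps it active when eIF2 is phosphorylated, and nelfinavir is an HIV protease inhibitor that is also known to activate stress signalling in tumour cells.

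The ISRIB samples held 6663180, 6169636, 6076114 and 6900004 counts, and the bortezomib with ISRIB samples 5441600, 5886463, 5572999 and 5154533. The totals were 6452230 ± 394300 and 5513900 ± 303700 (SD, n = 4 each; two-sided exact permutation p = 0.0286, the smallest that 4 against 4 samples can give). This difference of -938330 counts no longer reached 0.05 without bortezomib with ISRIB replicate 4 (-818546), ISRIB replicate 1 (-868019) or ISRIB replicate 4 (-789078), each with an exact permutation p of 0.0571. Fewer genes had at least 1 count with bortezomib, 13167 ± 64.8 against 14389 ± 40.3 (exact permutation p = 0.0286), and the gap was -1032 after all samples were thinned to the depth of the smallest. Thinning evened total depth but not its division among genes, which also differed, as the shares below show. The part of this division in the gap was not tested. Mitochondrially encoded genes took 21.98, 19.6, 22.6 and 23.2% of counts in the ISRIB samples and 35.4, 36.3, 32.6 and 40.2% in the bortezomib with ISRIB samples. The lowest share with bortezomib was above the highest without it, and the means were 21.9 ± 1.60% and 36.1 ± 3.13% (exact permutation p = 0.0286). The 20 most counted genes took 26.05 ± 1.46% and 42.4 ± 2.52% of counts (exact permutation p = 0.0286). DMSO samples held 20.0 to 23.1% mitochondrially encoded counts and samples with bortezomib alone 32.8 to 35.5%. Samples with bortezomib and nelfinavir held less, 24.9 to 29.6%, and those with nelfinavir alone at most 21.6%.

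Bortezomib with ISRIB replicate 3 stood apart from the other 3 samples of its group. Its score on the second principal component of log2 CPM (counts scaled to library totals corrected by TMM factors) was -56.1. This component carried 12.2% of the variance, and the others lay between 14.4 and 26.2 on it. In this sample 411 genes were over 1 log2 unit below all 3 others, against 163, 171 and 173 genes in replicates 1, 2 and 4, while 173 were over 1 log2 unit above them, against 103, 126 and 163. Counts of called genes and of list members are therefore, for most comparisons below, also given with this sample left out. Hepatocyte markers fitted the label of the line in both groups: *ALB* was at 3070.0, 3303, 2408 and 2937 CPM in the ISRIB samples and at 3168, 3004, 2188 and 3348 CPM with bortezomib, and the hepatocyte transcription factor *HNF4A* was at 117, 118, 127 and 116 CPM and 52.5, 59.3, 80.6 and 62.0 CPM. Of 12 markers of blood, stromal and endothelial cells, 6 were in the table and 3 were tested. Their summed level was 403, 471, 377 and 423 CPM with ISRIB and 213, 197, 163 and 284 CPM with bortezomib and ISRIB, most of it from *LYZ*, a lysozyme gene (364, 434, 334 and 375 against 162, 144, 108 and 229.8 CPM). Of the 3 tested *LYZ* was called lower (-1.23 ± 0.23), *ACTA2* higher (0.44 ± 0.13, adjusted p = 0.0057; -0.103 with library totals alone) and *CD68* was not called. *COL1A1* had 0 counts over the ISRIB samples and 9 with bortezomib, and *COL3A1* had 4 and 0, while *PTPRC*, *CD3E*, *DCN*, *PECAM1*, *VWF* and *CDH5* were not analysed here.

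**Figure D1:**
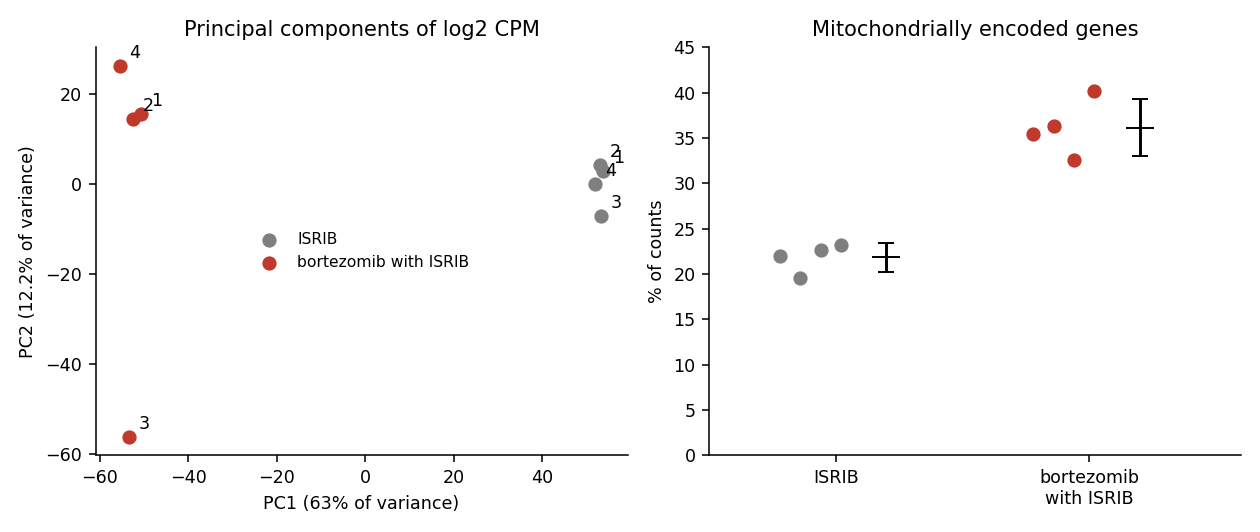
Left, the 8 samples on the first and second principal components of log2 CPM, numbered by replicate, with bortezomib with ISRIB replicate 3 apart at -56.1 on the second. Right, the percentage of each sample's counts that fell on mitochondrially encoded genes, with mean and SD beside each group (n = 4); the samples with bortezomib sit between 32.6 and 40.2%, all above the ISRIB samples.

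Bortezomib changed the level of many transcripts. Of 12685 genes tested with edgeR's quasi-likelihood test, 3676 (29.0%) were called higher and 3228 (25.4%) lower at a Benjamini-Hochberg adjusted p under 0.05 over all genes, and 1459 (11.5%) were higher and 1475 (11.6%) lower with a change over 2-fold. A gene can pass the filter on low counts through 1 group alone, where it then has to be high. Of the 10268 genes that reached the level of this filter (0.817 CPM of library totals) in all 4 samples of both groups, 3404 (33.2%) were higher and 2679 (26.1%) lower, with a median log2 fold change of 0.0756. Lists with members that did not reach it are counted below over the members that did, a choice made after the values were seen. Each list count below with TMM factors is to be read beside the shares of all genes, 29.0% higher and 25.4% lower. Counts over only the members that reached the filter's level belong beside 33.2% and 26.1%. List counts with library totals alone belong beside 1518 genes higher and 6382 (50.3%) lower of the 12685. With that scaling, counts over only the members at the filter's level belong beside 1333 higher and 5492 lower of the 10268. The 4 and 4 samples did not overlap for 6105 genes (48.1%), and of the 2934 genes changed over 2-fold 2663 had no overlap. Without bortezomib with ISRIB replicate 3, 3272 genes were called higher and 3419 lower. RNA came from whole cultures, so that fewer cells holding a transcript and less of it per cell cannot be told apart. The balance between the directions depended on the scaling: with TMM factors 53.2% of called genes were higher, and with library totals alone 19.2% were, as the median log2 fold change of all genes moved by -0.539, from 0.0239 to -0.515, and of all genes 1518 were called higher and 6382 (50.3%) lower. TMM factors were 1.19 ± 0.0309 in the ISRIB samples and 0.819 ± 0.0277 with bortezomib (SD, n = 4 each). All changes below are on the TMM scale and so relative to the bulk of genes, and a rise smaller than this shift can turn into a fall with library totals alone.

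By p-value, the 10 genes that led the rise were *HSPA1B*, *SLC7A11*, *GABARAPL1*, *DNAJB1*, *SAT1*, *NR0B2*, *PPP1R15A*, *AKR1C1*, *TRIB1* and *MAP1B*, at log2 fold changes of 2.49 (*SAT1*) to 5.41 (*HSPA1B*). The 10 that led the fall were *ALDH1B1*, *HMGA2*, *RNF43*, *FABP1*, *CNP*, *CCDC34*, *C2orf72*, *DGAT2*, *TOP2A* and *ARHGAP18*, at -1.71 (*TOP2A*) to -3.61 (*RNF43*). They include a heat shock protein, a cystine transporter, an autophagy gene and a phosphatase subunit of the stress response among those that rose, and a Wnt feedback gene, a fatty acid binding protein and a topoisomerase of mitosis among those that fell. *NR0B2*, which encodes the nuclear receptor SHP, was at 41.9, 38.3, 38.5 and 39.0 CPM with ISRIB and at 231, 264, 262 and 246 CPM with bortezomib, and *SAT1*, which acetylates polyamines, at 126, 123, 122 and 132 CPM and 684, 677, 740.5 and 718 CPM. *ALDH1B1*, a mitochondrial aldehyde dehydrogenase, was at 235, 230.1, 273 and 213 CPM with ISRIB and at 38.1, 40.8, 41.1 and 36.0 CPM with bortezomib. The 4 samples of each group lay far from those of the other for all 3 genes, with log2 fold changes of 2.67 ± 0.087, 2.49 ± 0.076 and -2.60 ± 0.10 (SE; adjusted p = 2.61e-26, 2.93e-27 and 1.11e-23).

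Heat shock genes rose together. Of 31 heat shock proteins, cochaperones and heat shock factors tested, 28 reached the filter's level in both groups, and of these 25 were called higher and 0 lower (23 and 0 without replicate 3, 16 and 2 with library totals alone), with a median log2 fold change of 0.972. The list holds 3 mitochondrial chaperones and 2 transcription factors, and of the other members at that level, 23 in number and a division made after the values were seen, 21 were higher and 0 lower (19 and 0 without replicate 3). *HSPA1B* (ENSG00000204388; chromosome 6, 31795515 to 31798031 in GRCh37), an inducible HSP70 gene, was at 42.6, 38.4, 31.9 and 40.7 CPM in the ISRIB samples and at 1697, 1811, 1558 and 1482 CPM with bortezomib. Every sample with bortezomib was far above every ISRIB sample, and the log2 fold change was 5.41 ± 0.12 (SE; adjusted p = 4.31e-31). Its near copy *HSPA1A* changed by 5.70 ± 0.14, and because the genes share sequence how reads divide between both is uncertain. *DNAJB1* (ENSG00000132002; chromosome 19, 14625581 to 14671203), an HSP40 partner of HSP70, was at 156, 159.8, 177 and 161 CPM and rose to 1232, 1337, 1455 and 1184 CPM, a log2 fold change of 2.995 ± 0.089 (adjusted p = 1.36e-27). The nucleotide exchange factor *HSPH1* rose by 2.40 ± 0.12 and *HSP90AA1*, the inducible HSP90, by 1.61 ± 0.082. *PTGES3*, the HSP90 cochaperone p23, was among the 3 that did not pass (-0.11, adjusted p = 0.251). It passed as lower with upper-quartile factors, with library totals alone and without bortezomib with ISRIB replicate 1 (adjusted p = 0.0325, 6.41e-09 and 0.0276). *HSPA6* had 2 counts over the 4 ISRIB samples and 150 with bortezomib, a ratio of 128 (exact 95% interval 34.7 to 1064), and *HSPB8* had 1 and 30, a ratio of 51.1 (8.49 to 2083), with 12, 6, 0 and 12 counts in the bortezomib samples and so no rise in replicate 3. The third member left out of the counts, *CRYAB*, had 26 and 111. Counting intervals cover counting error only, and *HSPA6* shares sequence with *HSPA7*.

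Subunits of the proteasome rose as well. Of 14 genes of the 20S core, 13 were higher and 0 lower (median log2 fold change 0.68, 12 and 0 without replicate 3, 5 and 2 with library totals alone), and of 20 genes of the 19S regulator 15 were higher and 0 lower (median 0.91, 15 and 0 without replicate 3, 11 and 4 with library totals alone). *PSMB1*, a core subunit, was at 326, 254, 371 and 333 CPM with ISRIB and at 1403, 1371, 1320.0 and 1481 CPM with bortezomib. No sample of a group came near the other group, and the log2 fold change was 2.12 ± 0.096 (adjusted p = 1.03e-21). Among regulator genes the ATPase subunit *PSMC4* rose by 1.86 ± 0.084 and the deubiquitinase *PSMD14* by 1.15 ± 0.074. *PSMA4* was higher by 0.31 ± 0.082, a direction that turned to -0.23 with library totals alone. Genes for assembly factors, immunoproteasome subunits and activators were mixed, 4 higher and 4 lower of 10 at the filter's level in both groups, of 11 tested (median -0.163, 3 and 4 without replicate 3, 1 and 7 with library totals alone). Of 13 genes for ubiquitin, p97 cofactors and NRF1 processing 9 were higher and 2 lower, with a median of 1 (9 and 2 without replicate 3, 7 and 4 with library totals alone).

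Autophagy receptors and ATG8 genes, counted with *ULK1* and *WIPI1*, were higher in 8 and lower in 0 of 10 at the filter's level in both groups, of 11 tested (median log2 fold change 1.78, 8 and 0 without replicate 3, 7 and 2 with library totals alone). *GABARAPL1*, which encodes an ATG8 protein of the autophagosome membrane, was at 4.04, 5.51, 3.25 and 4.19 CPM with ISRIB and at 127, 116, 131 and 108 CPM with bortezomib. Its lowest sample with bortezomib was above its highest ISRIB sample by far, and the log2 fold change was 4.82 ± 0.14 (adjusted p = 1.36e-27). The ubiquitin-binding receptor *SQSTM1* rose by 1.81 ± 0.092. Of 16 NRF2 and oxidative stress genes 6 were higher and 1 lower, where 29.0% of all genes were higher and 25.4% lower. Without replicate 3 the counts were 7 and 1, and with library totals alone 5 and 7. Their median of 0.32 turned to -0.23 with library totals alone. *TXNRD1*, a thioredoxin reductase, was at 67.1, 69.0, 46.2 and 80.1 CPM and 728, 726, 536 and 709.7 CPM (log2 fold change 3.36 ± 0.21), and *AKR1C1*, an aldo-keto reductase with a near copy in *AKR1C2*, rose by 3.12 ± 0.11. Of 6 metallothionein and zinc export genes 3 were higher and 1 lower (median 0.701, 3 and 1 without replicate 3, 2 and 1 with library totals alone), with *MT2A* at 1.46 ± 0.12, and metallothioneins are near copies of each other. Of 9 polyamine genes 4 were higher and 2 lower (4 and 3 without replicate 3, 2 and 5 with library totals alone), a median of 0.163 that turned to -0.383 with library totals alone.

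Targets of the integrated stress response rose in the presence of ISRIB. Of 9 transcription factors and regulators of this response 8 reached the filter's level in both groups, and 7 of these were higher and 0 lower (median log2 fold change 1.58, 6 and 0 without replicate 3, 5 and 0 with library totals alone). Of 12 stress effectors linked to ATF4 10 were tested and 9 reached that level, and these 9 were higher (median 2.2, also 9 without replicate 3). With library totals alone 6 were higher and 0 lower, and *INHBE* was among those that did not pass (0.113). *ATF4* itself was at 228, 233, 252 and 209.6 CPM with ISRIB and at 529.8, 565, 646 and 449 CPM with bortezomib. Every sample with bortezomib was above every ISRIB sample, and the log2 fold change was 1.25 ± 0.12 (adjusted p = 1.57e-10). Its partner *ATF3* was at 1.64, 1.44, 0.706 and 1.11 CPM and 40.7, 36.2, 37.3 and 32.1 CPM, a log2 fold change of 4.87 ± 0.19 (adjusted p = 1.11e-23). *DDIT3*, which encodes CHOP, rose by 2.38 ± 0.13, and the pseudokinase gene *TRIB3* by 1.91 ± 0.10. *GDF15*, a secreted stress cytokine, was at 134, 144, 175 and 156 CPM and 4734, 5051, 4905 and 3929 CPM (4.94 ± 0.16). The effector left out of these counts, *VLDLR*, had 1 count over the 4 ISRIB samples and 74 with bortezomib, a ratio of 126 (exact 95% interval 21.9 to 5041). Over all members tested, the median response to bortezomib was smaller with ISRIB than on vehicle. It was 1.91 and 2.4 for the transcription factors and regulators, and 2.28 and 2.93 for the effectors. Of 6 eIF2 kinases and eIF2 phosphatase subunits 5 were higher and 1 lower (median 0.673, 5 and 1 without replicate 3, 2 and 1 with library totals alone at a median of 0.125). *PPP1R15A* (ENSG00000087074; chromosome 19, 49375469 to 49379316), which encodes the inducible phosphatase subunit GADD34, was at 9.33, 6.30, 7.91 and 8.01 CPM with ISRIB and at 116, 119.8, 101 and 123 CPM with bortezomib. The groups were far apart, at a log2 difference of 3.86 ± 0.13 (adjusted p = 3.11e-25). The subunits of eIF2 and of eIF2B, the protein that ISRIB binds, were 2 higher and 2 lower of 8 (also without replicate 3). These counts are close to the shares of all genes, 29.0% higher and 25.4% lower. With library totals alone 0 of the 8 were higher and 6 lower, where 50.3% of all genes were lower. Their median of 0.0845 turned to -0.112 without bortezomib with ISRIB replicate 3 and to -0.00892 with upper-quartile factors. It turned to -0.453 with library totals alone, and the mean of the members was -0.0342.

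Genes for amino acid supply were mostly higher on the TMM scale. Of 12 amino acid transporters 10 were higher and 1 lower (median log2 fold change 1.26, 10 and 1 without replicate 3, 9 and 2 with library totals alone), of 13 genes for amino acid and one-carbon synthesis at the filter's level in both groups, of 14 tested, 8 were higher and 3 lower (median 0.535, 8 and 3 without replicate 3, 5 and 4 with library totals alone at a median of -0.00144), and of 20 cytosolic tRNA synthetases 14 were higher and 4 lower (median 0.621, 14 and 4 without replicate 3, 8 and 7 with library totals alone at a median of 0.0781). *SLC7A11* (ENSG00000151012; chromosome 4, 139085251 to 139163503), the cystine transporter of system xc-, was at 22.6, 26.1, 23.3 and 22.6 CPM with ISRIB and at 390.0, 376, 332 and 383 CPM with bortezomib. All samples with bortezomib were far above the ISRIB samples, and the log2 fold change was 3.97 ± 0.11 (adjusted p = 3.11e-29). *ASNS*, asparagine synthetase, was at 17.4, 14.2, 20.6 and 16.1 CPM and 124, 124, 144 and 119 CPM (2.90 ± 0.12), and *CTH*, which makes cysteine from cystathionine, rose by 3.51 ± 0.27. The direction was not shared by all: *PSPH*, the last enzyme of serine synthesis, was lower by -0.93 ± 0.10, and the synthetase gene *FARSB* by -0.83 ± 0.12. *PCK2* was lower by -0.33 ± 0.13 (adjusted p = 0.0247), a call that ended without bortezomib with ISRIB replicate 4, ISRIB replicate 3 or ISRIB replicate 4 (adjusted p = 0.0672, 0.0689 and 0.0785, log2 fold changes -0.27, -0.29 and -0.28). On vehicle the median response was 1.47 for the transporters and 0.737 for the synthetases. For the 14 synthesis genes tested it was 0.933 on vehicle and 0.555 with ISRIB. The response was called lower with ISRIB than on vehicle for 1 transporter, 3 synthesis genes and 2 synthetases, and higher for 1, 0 and 0.

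Chaperones of the ER rose with bortezomib on ISRIB and responded less to it on vehicle. Of 25 ER chaperones and folding enzymes tested, 21 were higher and 0 lower with bortezomib (22 and 0 without replicate 3, 19 and 2 with library totals alone), with a median log2 fold change of 1.2. In cells given vehicle in place of ISRIB the median response to bortezomib of the same genes was 0.207. The response was called higher with ISRIB than without for 20 of the 25 and lower for 0 (also 20 and 0 without replicate 3), where 390 (3.07%) of all genes were called higher and 252 (1.99%, or 411 genes with DESeq2) lower in this difference. *HSPA5* (ENSG00000044574; chromosome 9, 127997132 to 128003661), the HSP70 of the ER known as BiP, was at 1410.0, 1370.0, 1534 and 1369 CPM in the ISRIB samples and at 9768, 10210.0, 11310.0 and 8802 CPM with bortezomib. All 4 samples with bortezomib were well above the ISRIB samples, and the log2 fold change was 2.82 ± 0.10 (adjusted p = 3.63e-25). In the samples without ISRIB *HSPA5* was at 1459 ± 51.8 CPM with DMSO and 2134 ± 161 CPM with bortezomib (SD, n = 4 each), a log2 fold change of 0.55. The responses differed by 2.27 ± 0.13 (SE; adjusted p = 6.58e-16). The J-domain partner of BiP, *DNAJB11*, was at 114, 109, 120.0 and 111 CPM and 328, 329, 316 and 342 CPM, and its response was higher with ISRIB by 1.20 ± 0.11 (adjusted p = 5.06e-10). *HSP90B1*, the HSP90 of the ER, rose by 1.95 ± 0.099 with ISRIB and by 0.46 without, a difference of 1.49 ± 0.14 (adjusted p = 5.06e-10). *MANF*, a secreted ER stress protein, was at 178, 162, 128 and 156 CPM and 727, 776, 522 and 737 CPM, with replicate 3 the lowest of the bortezomib samples, and its responses differed by 2.02 ± 0.21 (adjusted p = 1.24e-06). *CRELD2* rose by 0.77 ± 0.12 with ISRIB and fell by 0.84 on the log2 scale without, a difference of 1.61 ± 0.18 (adjusted p = 3.32e-08). With library totals alone its rise with ISRIB was 0.23 and did not pass the test.

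Of 14 genes of ER-associated degradation 13 were higher and 0 lower (median log2 fold change 1.07; 9 and 0 with library totals alone), and for 8 of them the response was higher with ISRIB than without. Without replicate 3 these counts were also 13 and 8. The median response of the 14 genes was 0.405 on vehicle and 0.62 on nelfinavir. *HERPUD1*, which recruits ubiquitin ligases of the ER membrane, was at 26.4, 29.4, 23.02 and 24.9 CPM with ISRIB and at 315, 315, 175 and 336 CPM with bortezomib. Replicate 3 was well below the other samples with bortezomib but far above every ISRIB sample, and the responses differed by 2.08 ± 0.37 (adjusted p = 0.00192). *SEL1L*, the adaptor of the HRD1 ligase, was at 61.9, 67.2, 64.5 and 62.2 CPM and 188, 179.9, 182 and 170.1 CPM, and its response was 1.49 with ISRIB and 0.14 without (difference 1.36 ± 0.13, adjusted p = 6.56e-10). Outside the lists, *NUCB2*, a calcium-binding protein of the secretory pathway, rose by 0.91 ± 0.082 with ISRIB and changed by -0.33 without (difference 1.24 ± 0.12, adjusted p = 6.97e-10). Of 21 translocon, signal peptidase and oligosaccharyltransferase genes 13 were higher and 2 lower (13 and 2 without replicate 3, 2 and 8 with library totals alone), with a median of 0.375 that turned to -0.17 with library totals alone. The median response of the 21 genes was -0.137 on vehicle and 0.219 on nelfinavir. For 10 of the 21 (9 without replicate 3) the response was higher with ISRIB than without, among them *SSR1*, a translocon-associated protein (0.62 ± 0.074 with ISRIB, -0.35 without, difference 0.97 ± 0.10), whose rise with ISRIB did not pass with library totals alone (0.0838). Of 7 sensors and transcription factors of the unfolded protein response in the ER 4 were higher and 2 lower (4 and 2 without replicate 3, 3 and 3 with library totals alone), with a median of 0.534 that turned to -0.00376 with library totals alone. *EIF2AK3*, which encodes the sensor kinase PERK and is counted above with the eIF2 kinases and not among these 7, was at 11.6, 13.1, 12.99 and 12.4 CPM and 59.4, 86.1, 60.4 and 54.8 CPM, a log2 fold change of 2.38 ± 0.15, and its response was higher with ISRIB by 1.30 ± 0.21 (adjusted p = 6.09e-05). Of the 7, *XBP1*, counted over all its transcripts, was at 104, 112, 94.6 and 104 CPM and 57.0, 39.0, 52.2 and 54.3 CPM, lower by -1.04 ± 0.11, and its response was lower with ISRIB by -0.84 ± 0.15 (adjusted p = 2.00e-04).

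Sterol and fatty acid synthesis genes rose with bortezomib on ISRIB. Of 24 tested 20 were higher and 2 lower (median log2 fold change 0.959, 20 and 2 without replicate 3, 13 and 3 with library totals alone). On vehicle their median response was 0.207, and for 15 of the 24 the response was called higher with ISRIB (also 15 without replicate 3) and for 0 lower. On nelfinavir their median response was 0.752. Against nelfinavir 4 of the 24 had a higher response with ISRIB and 2 a lower one (also without replicate 3). *HMGCS1*, the HMG-CoA synthase of cholesterol synthesis, was at 217, 201, 233 and 196 CPM with ISRIB and at 503, 535, 599.9 and 539 CPM with bortezomib. The groups did not overlap, and the response of 1.36 ± 0.086 stood against 0.16 without ISRIB (difference 1.20 ± 0.12, adjusted p = 2.91e-09). *STARD4*, a sterol carrier, was at 11.5, 11.4, 9.32 and 11.7 CPM and 47.4, 45.4, 22.7 and 47.6 CPM, with replicate 3 the lowest in both groups (difference 1.504 ± 0.32, adjusted p = 0.00288). *SCD*, a fatty acid desaturase, was higher by 0.32 ± 0.078, a direction that turned to -0.22 with library totals alone.

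**Figure D2:**
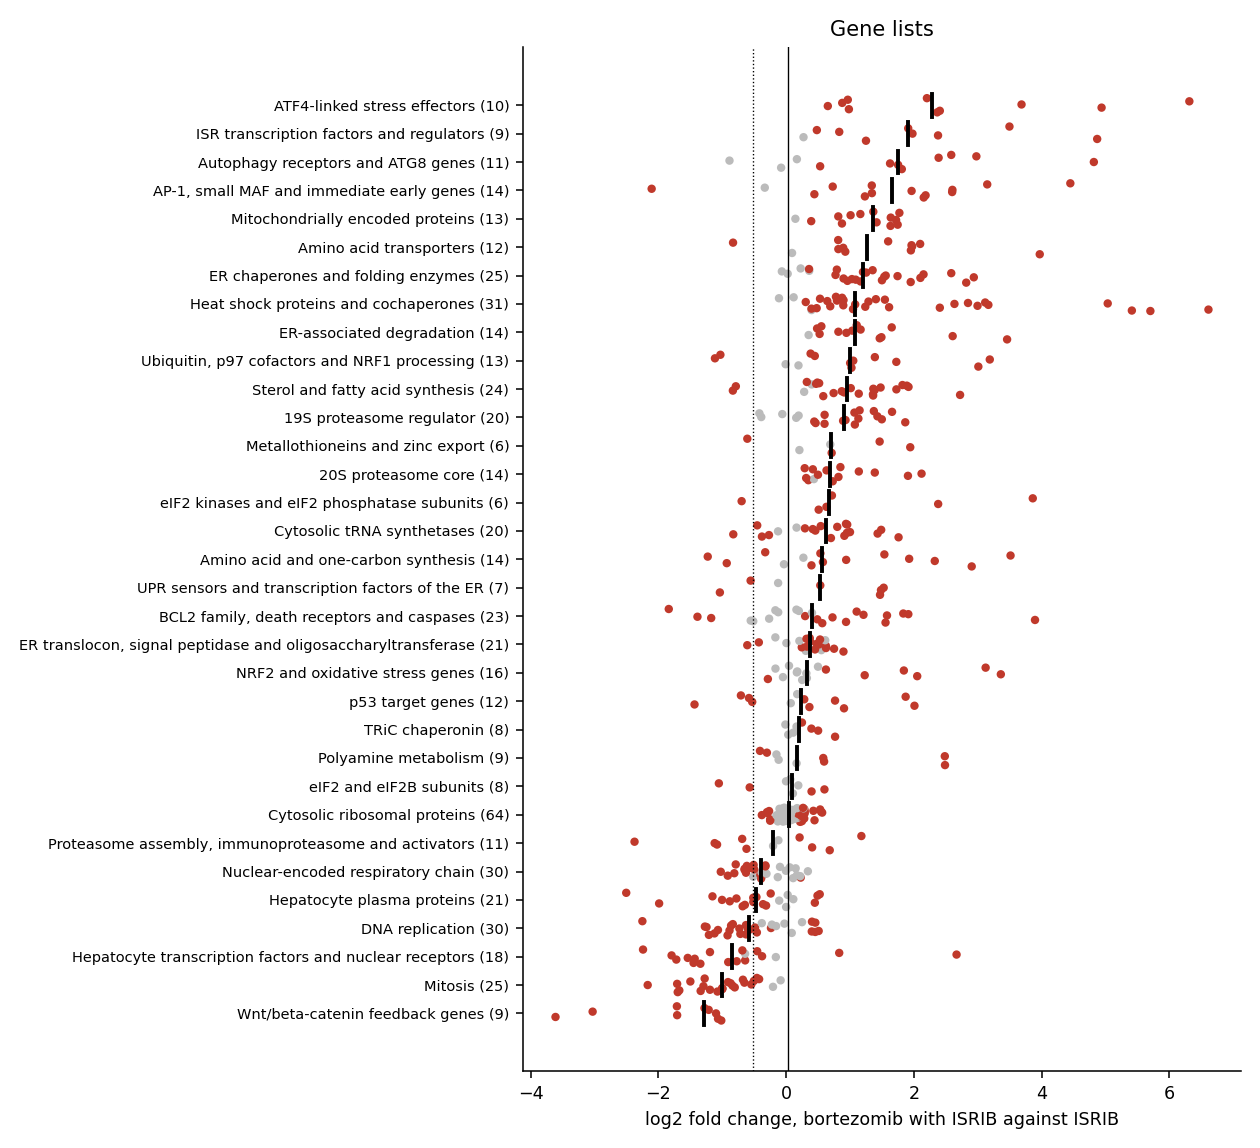
Log2 fold change, bortezomib with ISRIB against ISRIB, of each tested member (points, red where called) of the gene lists, except the markers of other cells (number tested in brackets). Black ticks are medians of all members drawn, those below the filter's level in 1 group included, the solid line is the median of all genes (0.0239) and the dotted line that median with library totals alone (-0.515). *HSPA6*, *VLDLR* and *HSPB8* rest on 1 or 2 ISRIB counts and *HRK* on 0.

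Cell cycle genes fell. Of 25 mitosis genes 23 were lower and 0 higher (median log2 fold change -1; 23 and 0 without replicate 3, 25 and 0 with library totals alone), and of 30 DNA replication genes 19 were lower and 5 higher (median -0.583, 19 and 3 without bortezomib with ISRIB replicate 3, 18 and 3 without replicate 2, 24 and 0 with library totals alone). *TOP2A* (ENSG00000131747; chromosome 17, 38544777 to 38574148), which untangles DNA before chromosomes part, was at 1424, 1499, 1453 and 1428 CPM with ISRIB and at 456, 454, 506 and 361 CPM with bortezomib. Each sample with bortezomib was below every ISRIB sample, and the log2 fold change was -1.71 ± 0.089 (adjusted p = 1.31e-19). *CDK1*, the mitotic kinase, was lower by -1.67 ± 0.13, its cyclin *CCNB1* by -1.08 ± 0.11 and the kinesin *KIF20A* by -2.17 ± 0.21. Among replication genes *SKP2*, a ubiquitin ligase subunit that acts at entry into S phase, was at 84.8, 89.9, 70.8 and 83.7 CPM and 17.6, 20.7, 16 and 14.6 CPM (-2.25 ± 0.14), and the helicase subunit *MCM4* was lower by -0.63 ± 0.095. *CDC6*, which loads that helicase, was higher by 0.46 ± 0.096, a direction that turned to -0.0847 with library totals alone.

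All 9 Wnt/beta-catenin feedback genes tested were lower, each over 2-fold (median log2 fold change -1.28), and all 9 were also lower without replicate 3 and with library totals alone. HepG2 cells carry an activated beta-catenin allele, and these genes are known targets of that pathway. *RNF43*, a ubiquitin ligase that removes Wnt receptors, was at 81.7, 82.3, 93.3 and 88.1 CPM with ISRIB and at 9.79, 5.24, 5.89 and 7.41 CPM with bortezomib. *SP5*, a transcription factor induced by Wnt, was at 238, 252, 169.5 and 209 CPM and 34.5, 28.3, 14.1 and 29.9 CPM. The groups were far apart for both genes, replicate 3 was the lowest bortezomib sample for *SP5*, and the log2 fold changes were -3.61 ± 0.15 and -3.03 ± 0.39 (adjusted p = 1.30e-22 and 1.78e-06). The median response of the 9 genes was -1.32 on vehicle and -0.774 on nelfinavir. In the difference from vehicle 0 were called. Against nelfinavir the response was lower with ISRIB for 3 and higher for 0. Lower were also 3 without replicate 3, and 5 without bortezomib with ISRIB replicate 4.

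Genes of hepatocyte identity were mostly lower. Of 18 hepatocyte transcription factors and nuclear receptors tested 16 reached the filter's level in both groups, and 13 of these were lower and 2 higher (median log2 fold change -0.841, 12 and 2 without replicate 3, 14 and 1 with library totals alone). Of 21 genes for plasma proteins, with *FABP1* counted among them, 14 were lower and 3 higher (median -0.466, 14 and 3 without replicate 3, 18 and 0 with library totals alone). *FABP1*, which carries fatty acids in hepatocytes, was at 438, 455, 416 and 422 CPM with ISRIB and at 81.0, 69.9, 71.6 and 82.9 CPM with bortezomib. No samples overlapped, and the log2 fold change was -2.50 ± 0.11 (adjusted p = 8.63e-22). *APOC3*, an apolipoprotein, was lower by -1.99 ± 0.13, and *TTR*, which carries thyroid hormone, was at 129, 118, 134 and 129 CPM and 65.9, 76.4, 74.8 and 81.0 CPM. *HNF4A* was lower by -0.91 ± 0.11 and *NR2F2*, an orphan nuclear receptor, by -2.24 ± 0.15. Albumin changed by a log2 ratio of -0.00 ± 0.13 (adjusted p = 0.994), with overlapping samples, and passed as lower with library totals alone (-0.552, adjusted p = 5.95e-04). *DGAT2*, which makes triglycerides, was at 80.7, 79.6, 87.3 and 80.6 CPM with ISRIB and at 11.6, 15.3, 10.3 and 13.8 CPM with bortezomib. It fell by 2.69 on the log2 scale with ISRIB and by 1.11 without, and the difference of -1.57 ± 0.18 was the lowest p among responses that were lower with ISRIB (adjusted p = 1.15e-07).

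Transcripts of the mitochondrial genome were higher in 12 of 13 and lower in 0 (median log2 fold change 1.36, 12 and 0 without replicate 3, 11 and 0 with library totals alone). *MT-ND2* was at 14720.0, 10440.0, 19900.0 and 15710.0 CPM with ISRIB and at 46510.0, 53550.0, 41030.0 and 62600.0 CPM with bortezomib, a log2 fold change of 1.75 ± 0.20. The groups did not overlap, while *MT-ND6*, which lies on the other strand, gave 0.14 ± 0.20 (adjusted p = 0.57). *MT-ATP8* and *MT-ATP6*, and *MT-ND4L* and *MT-ND4*, overlap, so that their reads cannot be told apart with certainty. Of 30 nuclear-encoded respiratory chain genes 17 were lower and 1 higher (median -0.389, 18 and 0 without replicate 3, 29 and 0 with library totals alone). Of 64 cytosolic ribosomal protein genes 17 (26.6%) were higher and 6 (9.38%) lower, the first share close to the 29.0% of all genes and the second below their 25.4%, with a median of 0.0508 that turned to -0.00888 with DESeq2's factors (-0.00876 in DESeq2), -0.0274 with no filter, -0.0418 with upper-quartile factors and -0.487 with library totals alone, where 0 were higher and 56 (87.5%, beside 50.3% of all genes) lower. Without bortezomib with ISRIB replicate 1, 2, 3 or 4 the genes higher were 7, 8, 10 and 10, and the medians -0.00738, -0.00474, -0.00437 and 0.0151.

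Of 14 AP-1, small MAF and immediate early genes 12 were higher and 1 lower (median log2 fold change 1.65, 11 and 2 without replicate 3, 10 and 2 with library totals alone). *DUSP1*, a phosphatase of MAP kinases, was at 3.40, 3.67, 2.26 and 2.96 CPM with ISRIB and at 67.5, 63.9, 48.9 and 91.3 CPM with bortezomib, whereas the transcription factor *EGR1* was at 9.33, 9.31, 8.61 and 10.1 CPM and 1.56, 3.35, 1.47 and 2.22 CPM. The groups were apart for both, in opposite directions (4.45 ± 0.22 and -2.11 ± 0.31, adjusted p = 2.62e-19 and 2.37e-07). Of 20 BCL2 family, death receptor and caspase genes at the filter's level in both groups, of 23 tested, 11 were higher and 2 lower (9 and 2 without replicate 3, 6 and 7 with library totals alone), with a median of 0.445 that turned to -0.1 with library totals alone. Among genes of stress-induced death that the study's text names, *BBC3*, which encodes PUMA, was at 21.9, 24.5, 25.8 and 20.2 CPM with ISRIB and at 27.4, 49.6, 57.7 and 42.0 CPM with bortezomib, and *PMAIP1*, which encodes NOXA, at 0.883, 2.10, 1.13 and 2.96 CPM and 4.67, 4.82, 8.21 and 3.21 CPM. Both were higher in every sample with bortezomib than in any ISRIB sample (0.94 ± 0.18 and 1.55 ± 0.35, adjusted p = 5.30e-05 and 2.41e-04), and *BBC3* no longer passed with library totals alone (log2 fold change 0.398). Its response was lower with ISRIB than without by -1.11 ± 0.25 (adjusted p = 0.00605), and that of *PMAIP1* differed by -0.76 ± 0.49, which did not pass (adjusted p = 0.44). *BCL2L11*, which encodes BIM, was higher by 0.56 ± 0.17 (adjusted p = 0.00578; with library totals alone the change was 0.0206 and was not called). The transcription factor *CEBPB* and the sensor *ERN1*, or IRE1, were higher by 1.98 ± 0.23 and 1.47 ± 0.21. *ITPR1*, a calcium channel of the ER, was lower by -0.69 ± 0.28 (adjusted p = 0.034), a call that ended without bortezomib with ISRIB replicate 3 or 4 or ISRIB replicate 1, 2 or 4 (adjusted p 0.0674 to 0.0955, log2 fold changes -0.66 to -0.58) or with only the groups of the contrast (0.0509). *HRK* had 0 counts over the ISRIB samples and 5 with bortezomib, a ratio of 2.84 if the ISRIB group is set to a floor of 3 counts. No interval was computed for this ratio, and *HRK* is 1 of the 3 left out of the count above. Of 12 p53 target genes 6 were higher and 4 lower (5 and 4 without replicate 3, 3 and 6 with library totals alone), a median of 0.228 that turned to -0.31 with library totals alone, and of 8 TRiC chaperonin genes 4 were higher and 0 lower (3 and 0 without replicate 3, 1 and 5 with library totals alone), a median of 0.204 that turned to -0.337.

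Across all genes the responses to bortezomib with ISRIB and with vehicle share no samples and can be set side by side. With ISRIB 6904 genes were called and with vehicle 6776. In both, 5214 were called, 5170 of them in the same direction, which is 74.9% of the genes called with ISRIB and 76.3% of those called with vehicle. Pearson's r of the log2 fold changes across 12685 genes, which are not independent replicates, was 0.78. Of the 390 genes whose response was higher with ISRIB, 244 were called higher with ISRIB. With vehicle, 100 of the 390 were called higher, 177 lower and 113 not called. Of the 252 genes whose response was lower with ISRIB, 70 were called higher and 124 lower with ISRIB, and 141 higher and 48 lower with vehicle. Without bortezomib with ISRIB replicate 3 these differences numbered 409 higher and 313 lower.

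**Figure D3:**
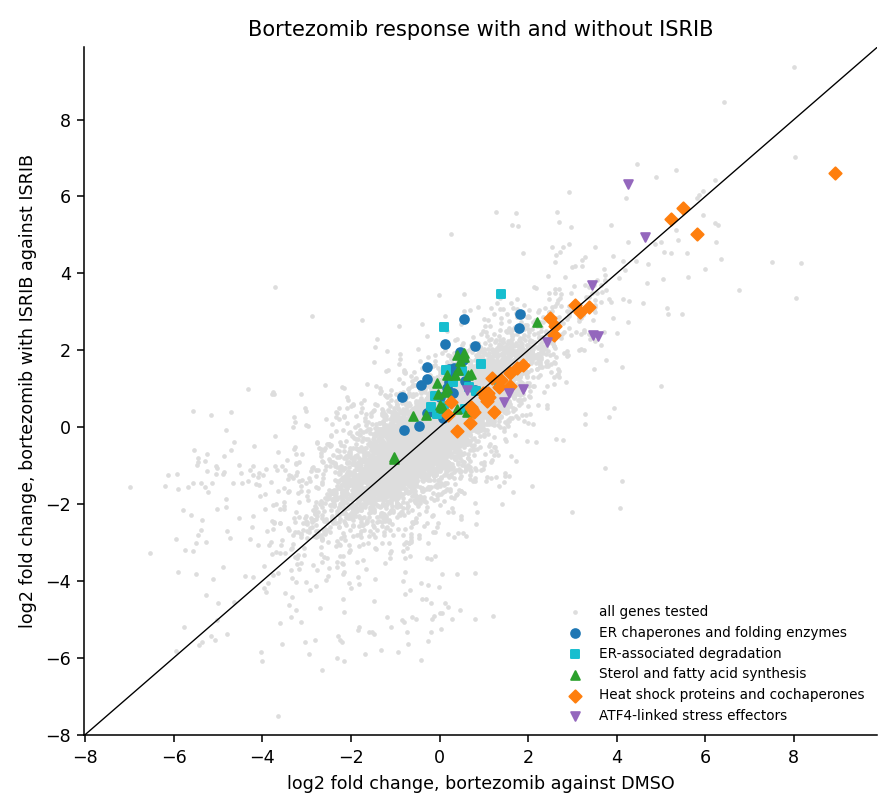
Log2 fold change of bortezomib with ISRIB against ISRIB (vertical) by that of bortezomib against DMSO (horizontal) for the 12685 genes tested, with members of 5 lists marked and the line of equal response. ER chaperones lie above the line (medians 1.2 and 0.207). Fitted values of *HSPA6*, *VLDLR* and *HSPB8* rest on 1 or 2 ISRIB counts.

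Heat shock genes and ATF4-linked effectors mostly did not share the higher response of the ER chaperones in this comparison. Of the 28 heat shock genes at the filter's level in both groups the response was called higher with ISRIB for 1, which encodes a mitochondrial chaperone (*HSPE1*), and lower for 4 (1 and 2 without replicate 3). Among all genes 3.07% were called higher and 1.99% lower in this difference. The call of *HSPE1* (adjusted p = 0.0442) ended without any of 11 of the 16 samples, all but bortezomib replicates 3 and 4, bortezomib with ISRIB replicate 3, DMSO replicate 1 and ISRIB replicate 2 (adjusted p 0.0605 to 0.124). It also ended with DESeq2's factors, upper-quartile factors, library totals alone and no filter, and without mitochondrially encoded or the 20 most counted genes (0.0526 to 0.0898). Of the 9 ATF4-linked effectors at that level the response was higher with ISRIB for 0 and lower for 4 (0 and 4 without replicate 3), with a median difference of -0.682. Among effectors *SESN2*, a sestrin that restrains mTORC1, was at 29.6, 29.8, 33.9 and 35.8 CPM with ISRIB and at 166, 160.0, 215 and 123 CPM with bortezomib. It was higher in every sample with bortezomib than in any ISRIB sample, and its response of 2.36 was below the 3.57 without ISRIB (difference -1.21 ± 0.20, adjusted p = 4.39e-04). *DDIT4*, another inhibitor of mTORC1, was at 22.3, 21.9, 18.4 and 22.6 CPM and 120.0, 108, 109 and 114 CPM, with responses of 2.40 and 3.46 (difference -1.05 ± 0.13, adjusted p = 6.83e-07). *PPP1R15A* differed by -1.19 ± 0.19 (adjusted p = 6.09e-05). The response of *SLC7A11* was 3.97 with ISRIB and 3.74 without, and that of *ATF4* 1.25 and 1.37, differences that did not pass (adjusted p = 0.41 and 0.765). Outside the lists, *DHRS2*, a short-chain dehydrogenase, was lower with bortezomib on ISRIB (-0.41) and higher on vehicle (0.62; difference -1.03 ± 0.14, adjusted p = 6.59e-06). *C6orf48*, a host gene of small nucleolar RNAs, gave 0.16 with ISRIB (-0.383 with library totals alone) and 1.35 without (difference -1.18 ± 0.15, adjusted p = 4.02e-07). *EPB41L4A-AS1*, an antisense gene whose reads are uncertain because the strand setting is not stated in the sources used, gave 0.70 and 1.80 (difference -1.10 ± 0.16, adjusted p = 1.05e-05). Its rise with ISRIB did not pass with library totals alone (0.165).

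Against the response to bortezomib in nelfinavir, 976 genes (7.69%) had a higher response with ISRIB and 960 (7.57%) a lower one (816 and 1180.0 without bortezomib with ISRIB replicate 3). Of the 25 ER chaperones 3 were higher and 1 lower in this difference (3 and 1 without replicate 3). Their median response to bortezomib was 1.08 on nelfinavir and 1.2 on ISRIB. The response was higher with ISRIB for 8 of 9 ATF4-linked effectors, 6 of 8 transcription factors of the integrated stress response and 10 of 13 amino acid synthesis genes at the filter's level in both groups, and lower for 0 of each (8, 7 and 9 without replicate 3, and lower for 0). Over all members tested, the median responses of these lists were 2.28, 1.91 and 0.555 on ISRIB and 0.55, 0.315 and -0.198 on nelfinavir. According to the paper, nearly all genes that nelfinavir alone raised most were known ATF4 targets. List levels without bortezomib were not compared here. The response was lower with ISRIB for 19 of 28 heat shock genes at the filter's level in both groups and 24 of 30 DNA replication genes, and higher for 0 of each (20 and 24 without replicate 3, and higher for 0). *SLC7A11* was at 280.5 ± 15.03 CPM with nelfinavir and 438 ± 73.0 CPM with bortezomib added (SD, n = 4 each), a log2 fold change of 0.64 beside 3.97 with ISRIB. The difference was 3.33 ± 0.14 (adjusted p = 8.87e-22). *ASNS* was at 247 ± 17.04 CPM and 266 ± 34.6 CPM, a response of 0.11 beside 2.90 (difference 2.797 ± 0.15, adjusted p = 2.68e-17). In ISRIB alone their means were 23.6 ± 1.69 and 17.1 ± 2.71 CPM, so that the groups without bortezomib differ in level as well. *TM4SF1*, *DDIT4* and *S100P* were the next by p, with differences of 1.94, 2.23 and 2.25. *DNAJB1* was at 121 ± 6.04 CPM with nelfinavir and 3666 ± 527 CPM with bortezomib added, and its response was lower with ISRIB by -1.93 ± 0.12 (adjusted p = 7.16e-16). *ANKRD1*, *CDC6*, *CHORDC1*, an HSP90 cochaperone gene, and *MCM4* followed, with differences of -3.57, -1.94, -2.004 and -1.67. The 2 comparisons of responses share the ISRIB and the bortezomib with ISRIB samples.

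Promoters from RefSeq (GRCh38.p14, 250 bases before to 50 after the start) were matched to 9625 of 12685 genes (75.9%), 8949 by symbol and 676 by synonym, and were read for 4 motifs on both strands. The heat shock element GAANNTTC was in 5.23% of 1089 promoters of genes over 2-fold higher, 4.57% of 1006 of genes over 2-fold lower and 4.54% of all. The C/EBP-ATF site TGATGNAA was in 2.02, 2.49 and 1.64%, the antioxidant response element TGACNNNGC in 17.8, 12.2 and 15.4%, and the ER stress element, CCAAT, any 9 bases, CCACG, in 0.459, 0.0994 and 0.135%. As under 80% of genes had a promoter to read, these shares describe the matched genes only and no comparison between the sets is drawn. Those of 6 genes are shown, the first by p among the genes leading a comparison above whose promoter holds a motif, printed and 5′ to 3′, with motif letters in capitals. They lie at chr6:31827488-31827787, plus strand (*HSPA1B*), chr19:48872171-48872470, plus strand (*PPP1R15A*), chr10:4963165-4963464, plus strand (*AKR1C1*), chr17:40417847-40418146, minus strand (*TOP2A*), chr7:97872359-97872658, minus strand (*ASNS*) and chr3:149377600-149377899, minus strand (*TM4SF1*). Capitals mark the heat shock element in *HSPA1B*, *AKR1C1* and *TOP2A*, the antioxidant response element in *PPP1R15A* and *TM4SF1*, and in *ASNS* a C/EBP-ATF site that overlaps a heat shock element. A match is a run of letters, and binding was not measured.
HSPA1B: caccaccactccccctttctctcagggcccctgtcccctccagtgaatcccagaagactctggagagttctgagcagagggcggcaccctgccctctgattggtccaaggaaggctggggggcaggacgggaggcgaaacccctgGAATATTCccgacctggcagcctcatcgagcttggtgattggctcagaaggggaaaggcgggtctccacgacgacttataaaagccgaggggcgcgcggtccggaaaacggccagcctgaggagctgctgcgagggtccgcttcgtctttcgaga
PPP1R15A: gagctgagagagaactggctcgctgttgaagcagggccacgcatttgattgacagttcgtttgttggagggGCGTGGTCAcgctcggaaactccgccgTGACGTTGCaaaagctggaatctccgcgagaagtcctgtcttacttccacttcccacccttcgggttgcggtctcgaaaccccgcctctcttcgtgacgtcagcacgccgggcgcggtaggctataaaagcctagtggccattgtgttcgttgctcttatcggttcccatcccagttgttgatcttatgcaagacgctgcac
AKR1C1: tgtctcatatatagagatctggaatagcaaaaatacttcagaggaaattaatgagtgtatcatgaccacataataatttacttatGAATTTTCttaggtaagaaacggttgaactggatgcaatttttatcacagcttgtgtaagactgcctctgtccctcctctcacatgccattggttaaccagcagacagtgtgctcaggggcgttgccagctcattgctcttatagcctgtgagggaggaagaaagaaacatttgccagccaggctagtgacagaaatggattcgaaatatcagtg
TOP2A: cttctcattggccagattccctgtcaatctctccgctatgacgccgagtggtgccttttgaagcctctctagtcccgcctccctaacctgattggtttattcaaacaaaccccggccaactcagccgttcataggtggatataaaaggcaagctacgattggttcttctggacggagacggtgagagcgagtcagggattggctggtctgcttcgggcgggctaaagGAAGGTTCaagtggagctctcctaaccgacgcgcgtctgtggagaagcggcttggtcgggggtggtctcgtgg
ASNS: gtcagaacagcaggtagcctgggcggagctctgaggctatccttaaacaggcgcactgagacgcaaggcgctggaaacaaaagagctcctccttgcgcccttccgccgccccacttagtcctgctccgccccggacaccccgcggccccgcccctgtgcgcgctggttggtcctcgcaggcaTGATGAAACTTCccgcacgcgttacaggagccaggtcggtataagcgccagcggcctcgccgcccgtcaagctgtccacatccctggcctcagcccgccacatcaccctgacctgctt
TM4SF1: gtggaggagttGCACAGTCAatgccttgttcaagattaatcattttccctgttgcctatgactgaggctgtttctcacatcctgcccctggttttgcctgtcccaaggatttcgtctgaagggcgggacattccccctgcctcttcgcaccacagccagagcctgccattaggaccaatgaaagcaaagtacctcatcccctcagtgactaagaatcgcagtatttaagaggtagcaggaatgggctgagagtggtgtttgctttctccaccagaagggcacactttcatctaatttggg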

How the data were processed

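The data are the deposited gene counts of 24 samples: whole-number read counts per gene that the authors made from trimmed 3′ reads (cutadapt 2.8, STAR, hg19; submitters' processing notes), with GRCh37 genes of the protein-coding, lincRNA and antisense types counted. According to the paper's methods, trimmed reads went through nf-core's RNA-Seq pipeline, release 1.4.2. Counts followed Ensembl's GRCh37 annotation, release 87. The counting program, strandedness and the presence of molecular identifiers are not described. Of 18915 genes, 12685 passed filterByExpr (minimum count 5, minimum total count 25). All 24 samples were fitted with edgeR 4.0.16 (glmQLFit and glmQLFTest, TMM, group means, R 4.3.3). Contrasts were bortezomib with ISRIB minus ISRIB, and that response minus the response in vehicle or in nelfinavir, with p-values adjusted by Benjamini-Hochberg over all genes tested and called under 0.05. CPM values are TMM-scaled. Totals per sample of 5154533 to 6900004 in the 8 samples limit precision for genes with few counts. Single values per sample were tested by two-sided exact permutation (Python 3.11.15).

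Genes named are the 10 of each direction with the smallest p among those called, over 2-fold and without overlap between samples, the 5 of each direction of each difference, members of the 34 lists, and genes that the study's text names for this assay. The list members used as examples were chosen with their values known. The samples and lists themselves were chosen with earlier results of these data known, so lists are described by counts and medians and not tested. Promoter shares are a description.

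Alternatives were other scalings (DESeq2's median-of-ratios, upper-quartile, totals alone), DESeq2 1.42.0, no filter and edgeR's default filter (minimum count 10, minimum total 15), only the groups of the contrast, a replicate block, each sample left out, mitochondrially encoded genes removed, glmTreat, thinning and list means. Removing the 20 most counted genes, and counting list members at the filter's level in both groups, were chosen after seeing the data. Gene positions are of GRCh37 and promoters of GRCh38.p14.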

Additional observations from a re-analysis of the deposited data

Results flagged for a closer look

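Within the groups of 4, 200 sets of values were looked at (97 named genes and 3 measures of the libraries, in each group), and in 17 of them the highest or lowest sample lay far from the other 3, by Dixon's gap relative to the range at its 95% level. Chance gives about 1 in 20. Among the bortezomib with ISRIB samples, replicate 3 was the sample apart for *TXNRD1* (536 CPM), *HERPUD1* (175), *STARD4* (22.7), *NR2F2* (15.2) and *CEBPB* (50.1). Replicate 4 was apart for *TRIB1* (281), *HSP90AA1* (13960) and *PSMD14* (265), and replicate 2 for *GARS* (263). Among the ISRIB samples, replicate 3 was apart for *DGAT2* (87.3 CPM), *DDIT4* (18.4), *TM4SF1* (499), *PSMA4* (210), *STARD4* (9.32), *HNF4A* (127) and *ITPR1* (4.38), and replicate 4 for *S100P* (26.01). The part of these samples in the results was not tested beyond leaving each out.

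For 49 of the 97 named genes the response to bortezomib differed between ISRIB and vehicle in the fitted model (edgeR quasi-likelihood, adjusted p under 0.05 over all genes; log2 difference in brackets). It was higher with ISRIB for *AKR1C1* (0.59), *TRIB1* (0.50), *FABP1* (0.50), *HSPA5* (2.27), *DNAJB11* (1.20), *HSP90B1* (1.49), *SEL1L* (1.36), *NUCB2* (1.24), *TM4SF1* (1.12), *ANKRD1* (0.97), *CDC6* (0.50), *HSPE1* (0.38), *SLC7A6* (0.92), *EIF2AK3* (1.30), *MANF* (2.02), *HERPUD1* (2.08), *EDEM1* (2.50), *CRELD2* (1.61), *SSR1* (0.97), *DAD1* (0.76), *HMGCS1* (1.20), *STARD4* (1.504), *SCD* (0.62), *MT2A* (1.03) and *TTR* (0.71). It was lower with ISRIB for *PPP1R15A* (-1.19), *DGAT2* (-1.57), *C6orf48* (-1.18), *DDIT4* (-1.05), *DHRS2* (-1.03), *EPB41L4A-AS1* (-1.10), *PTGES3* (-0.50), *PSMB1* (-0.46), *PSMD14* (-0.71), *TRIB3* (-0.49), *PCK2* (-0.94), *PSPH* (-0.77), *SESN2* (-1.21), *INHBE* (-0.80), *STC2* (-0.89), *BBC3* (-1.11), *SLC1A4* (-0.79), *GARS* (-0.36), *FARSB* (-0.72), *XBP1* (-0.84), *CCNB1* (-0.73), *CDK1* (-0.62), *HNF4A* (-0.60) and *ACTA2* (-1.03).

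The calls of some of these differences ended when 1 of the 16 samples of the comparison was left out, with the direction kept each time. In brackets are the adjusted p without the samples named, and then the log2 difference over all 16 samples left out in turn. That of *GARS* no longer passed when any of 13 samples was left out (adjusted p 0.0537 to 0.0835; -0.40 to -0.34), the exceptions being bortezomib replicate 3, bortezomib with ISRIB replicate 2 and ISRIB replicate 3. *FABP1* was lost without any of 11 samples (0.0518 to 0.127; 0.42 to 0.60), all but bortezomib replicates 2 and 4, bortezomib with ISRIB replicates 2 and 3 and DMSO replicate 2. *HSPE1* was also lost without any of 11 (0.0605 to 0.124; 0.31 to 0.42), all but bortezomib replicates 3 and 4, bortezomib with ISRIB replicate 3, DMSO replicate 1 and ISRIB replicate 2. *TRIB3* was lost without any of 10 (0.0507 to 0.118; -0.54 to -0.42): bortezomib replicates 2 and 4, bortezomib with ISRIB replicates 1, 2 and 4, DMSO replicates 1, 2 and 4, and ISRIB replicates 1 and 4. *PSMB1* was lost without any of 9 (0.0513 to 0.0802; -0.56 to -0.39): bortezomib replicates 3 and 4, bortezomib with ISRIB replicate 2, DMSO replicates 1, 3 and 4, and ISRIB replicates 1, 3 and 4. *TRIB1* was lost without any of 7 (0.0514 to 0.0963; 0.40 to 0.56): bortezomib replicates 1 and 3, bortezomib with ISRIB replicates 1 and 2, DMSO replicate 2, and ISRIB replicates 1 and 2. *CDK1* was lost without any of 6 (0.058 to 0.0712; -0.72 to -0.55): bortezomib replicates 3 and 4, bortezomib with ISRIB replicate 1, DMSO replicates 3 and 4, and ISRIB replicate 2. *CDC6* was lost without bortezomib replicate 1, bortezomib with ISRIB replicate 2 or ISRIB replicate 2 (0.0524 to 0.0566; 0.46 to 0.58). *EDEM1* was lost without DMSO replicate 3, DMSO replicate 4 or ISRIB replicate 4 (0.0516 to 0.063; 2.17 to 2.74). *HNF4A* was lost without bortezomib with ISRIB replicate 1 (0.0516; -0.74 to -0.52). The other named differences from vehicle passed with each of the 16 samples left out. Calls also ended under other processing. That of *FABP1* did so with DESeq2, DESeq2's factors, upper-quartile factors, library totals alone and without mitochondrially encoded or the 20 most counted genes (0.0525 to 0.082). *HSPE1* was lost under the same settings except DESeq2, and with no filter (0.0526 to 0.0898). *TRIB1* was lost with library totals alone (0.0585), and *CDC6* and *GARS* with no filter (0.0662 and 0.142).

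For 53 of the 97 genes the response differed between ISRIB and nelfinavir. It was higher with ISRIB for *SLC7A11* (3.33), *GABARAPL1* (0.99), *NR0B2* (1.27), *AKR1C1* (1.48), *TRIB1* (0.73), *MAP1B* (1.64), *NUCB2* (0.50), *DDIT4* (2.23), *ASNS* (2.797), *TM4SF1* (1.94), *S100P* (2.25), *SQSTM1* (1.05), *ATF4* (0.93), *ATF3* (1.68), *DDIT3* (1.501), *TRIB3* (1.06), *CTH* (2.79), *PCK2* (1.18), *INHBE* (2.11), *STC2* (0.59), *GDF15* (1.88), *SLC1A4* (0.93), *GARS* (1.14), *SSR1* (0.51), *DAD1* (0.48), *SCD* (0.72), *MT2A* (0.97), *HNF4A* (0.53), *TTR* (0.92) and *CEBPB* (1.79). It was lower with ISRIB for *HSPA1B* (-1.70), *DNAJB1* (-1.93), *SAT1* (-0.35), *HMGA2* (-0.64), *CCDC34* (-0.92), *DHRS2* (-1.47), *ANKRD1* (-3.57), *CDC6* (-1.94), *CHORDC1* (-2.004), *MCM4* (-1.67), *HSPA1A* (-2.03), *HSPH1* (-2.19), *HSP90AA1* (-1.19), *HSPE1* (-0.70), *PTGES3* (-0.61), *PSMD14* (-0.53), *HMGCS1* (-0.46), *CDK1* (-0.90), *SKP2* (-1.40), *NR2F2* (-1.44), *MT-ND6* (-0.91), *BCL2L11* (-1.20) and *ITPR1* (-1.07). *DAD1* was lost without bortezomib with ISRIB replicate 1 or 2, bortezomib with nelfinavir replicate 2 or 3, or ISRIB replicate 4 (adjusted p 0.0548 to 0.0836; 0.39 to 0.52). *HNF4A* was lost without bortezomib with ISRIB replicate 3 or bortezomib with nelfinavir replicate 2 or 3 (0.0614 to 0.117; 0.34 to 0.59). *MT-ND6* was lost without bortezomib with ISRIB replicate 1 or 4, bortezomib with nelfinavir replicate 3, ISRIB replicate 3 or 4, or nelfinavir replicate 2 or 4 (0.0548 to 0.0764; -1.13 to -0.79). *ITPR1* was lost without bortezomib with ISRIB replicate 3 or 4, ISRIB replicate 1, 2 or 4, or nelfinavir replicate 2, 3 or 4 (0.062 to 0.0866; -1.32 to -0.95). With no filter *DAD1* and *ITPR1* were also lost (0.111 and 0.0581), and with only the groups of the contrast *MT-ND6* was (0.0544). Both sets of differences share the ISRIB and bortezomib with ISRIB samples. A higher response with ISRIB can go with a lower level in ISRIB alone than in nelfinavir alone, as for *SLC7A11* and *ASNS* above.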

How the results depend on the processing

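With library totals alone in place of TMM, genes called higher numbered 1518 and lower 6382, and over 2-fold 597 and 3411, as the median of all genes moved by -0.539. The same scaling turned *C6orf48* to -0.383, *CDC6* to -0.0847, *PSMA4* to -0.232, *SCD* to -0.218 and *ACTA2* to -0.103, and 12 of 199 results of the 97 named genes no longer passed. A test for changes above 2-fold (glmTreat), by its construction stricter, called 682 genes higher and 567 lower. DESeq2 called 411 genes with a lower response with ISRIB than without, beside 252, and the cause was not tested. Pairs of equal replicate number gave r across genes of 0.0589, 0.0208, 0.155 and -0.00668, and other pairs -0.11 to 0.0587, over genes that are not independent replicates. With a replicate block 3685 genes were higher and 3266 lower, and all 199 results of named genes kept direction and side of the threshold. In the sample titles the ISRIB replicates do not follow the order of their library numbers, while those of the other groups do. Equal replicate numbers may therefore not mark matching cultures, and neither the block nor these pairs can settle whether samples were paired. Leaving out each sample in turn gave 3205 to 3516 genes higher, 3015 to 3419 lower, 1309 to 1467 over 2-fold higher and 1431 to 1645 over 2-fold lower. Responses higher with ISRIB than without numbered 280 to 409, lower 170 to 313, higher than with nelfinavir 754 to 887 and lower 778 to 1180. The difference in total counts lay between -1063710 and -789078, and was -818546 without bortezomib with ISRIB replicate 4, -868019 without ISRIB replicate 1 and -789078 without ISRIB replicate 4, each at an exact permutation p of 0.0571. The difference in mitochondrially encoded share lay between 12.9 and 15.4 points and that in genes with a count between -1247 and -1194. Of the values of named genes under all alternatives, 4244 kept direction and side of the threshold, 133 no longer passed, 8 newly passed and 5 turned direction. Of list medians 216 moved by less than the spread between replicates and 90 by more. Counting list members at the filter's level in both groups was chosen after seeing the data. Removing the 20 most counted genes, also chosen after seeing the data, gave 3329 higher and 3527 lower. At 5154533 to 6900004 counts per sample, genes with few counts in a group have wide intervals, as the ratios of *HSPA6*, *VLDLR* and *HSPB8* show, and members below the filter were not tested.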
